A study of Homo sapiens with 16 samples.

Results

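MED1 peaks of wild-type (WT) HCT116 cells treated with Nutlin-3a were compared with those of WT cells treated with DMSO. The 2 deposited peak lists held 1106 peaks with DMSO and 1254 with Nutlin-3a, together 2360 of the 3464 peaks in the 6 lists of the series. A DMSO and a Nutlin-3a peak were taken as the same position where they overlapped by at least 1 bp. This joined 813 DMSO peaks with 815 Nutlin-3a peaks in 781 overlapping groups, of which 726 held exactly 1 peak of each list and are called pairs here. Another 439 Nutlin-3a peaks had no DMSO peak (gained) and 293 DMSO peaks had no Nutlin-3a peak (lost).

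HCT116 is a human colorectal carcinoma line. The WT cells carried no edit and were exposed for 1 h to Nutlin-3a or, as the mock, to DMSO, and chromatin was fixed with 1% formaldehyde for 15 min. Each condition had 2 MED1 libraries and 2 inputs, 8 of the series' 16 samples, and the labels do not say whether the 2 came from separate cultures. Both MED1 libraries of a condition stand behind 1 joint list, so no value below has a spread between replicates and no test between the conditions could be made. The comparison line, MED14-AID, is a CRISPR/Cas9-edited HCT116 line in which both copies of the Mediator subunit MED14 carry an auxin-inducible degron and 1 allele supplies the plant protein OsTIR1. Its lists used here are those with 3 h of water, with or without Nutlin-3a for 1 h afterwards, and those with 3 h of 500 µM auxin, again with or without Nutlin-3a. Each of these rests on 1 MED1 library, and the labels name no DMSO for those without Nutlin-3a.

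Mediator is a large complex that carries signals from transcription factors on enhancers to RNA polymerase II at promoters, and MED1 is the subunit that many factors contact and that piles up on clusters of strong enhancers. The p53 protein is held low by MDM2, an E3 ligase that binds it and sends it to the proteasome. Nutlin-3a fills the p53 pocket of MDM2, so that p53 accumulates and its target genes, MDM2 itself among them, are transcribed.

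The height of a peak is given by the authors' fold, the enrichment over background that their peak caller wrote for each peak, and by the −log10 of its q-value. No read counts come with the lists, so the depth of each library is unknown, and a ratio of 2 folds is a description of 2 lists. The Wilson 95% interval given beside a share allows for the number of peaks and for nothing else. Positions are hg19. Genes are named from their well-known hg19 positions, recalled and not read from an annotation, and the names serve as orientation.

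MDM2, a textbook p53 target, had a pair at its start, and its 2 RefSeq start windows (GRCh38.p14, 250 bases before to 50 after each start, 5′ to 3′ on the gene's strand) are shown for that reason. The first lies at chr12:68807922-68808221 and the internal one, 845 bp further on, at chr12:68808767-68809066, both on the plus strand. Capitals in the internal window mark, in this order, a match to the AP-1 motif TGANTCA and a match to the p53 motif of 2 adjoining half-sites with 2 letters off.

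MDM2 first start: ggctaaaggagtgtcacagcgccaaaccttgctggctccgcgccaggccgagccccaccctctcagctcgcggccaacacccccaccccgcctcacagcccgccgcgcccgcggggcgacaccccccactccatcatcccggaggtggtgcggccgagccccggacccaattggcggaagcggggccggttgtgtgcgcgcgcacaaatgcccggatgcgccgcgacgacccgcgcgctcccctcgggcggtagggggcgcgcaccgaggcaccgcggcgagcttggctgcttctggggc
MDM2 internal start: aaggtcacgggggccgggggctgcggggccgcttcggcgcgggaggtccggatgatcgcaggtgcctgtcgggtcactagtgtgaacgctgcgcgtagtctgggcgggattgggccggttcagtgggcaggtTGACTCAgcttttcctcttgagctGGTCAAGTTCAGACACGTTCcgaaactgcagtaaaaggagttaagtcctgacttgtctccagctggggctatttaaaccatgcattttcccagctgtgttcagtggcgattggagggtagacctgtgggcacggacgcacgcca

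A match to the p53 motif with at most 2 letters off on either strand was present in 227 of 34796 RefSeq start windows of this length (0.652%), and one to AP-1 in 2688 (7.73%). The first MDM2 window held neither. At this locus the DMSO peak ran from 69201872 to 69202436 on chromosome 12 (fold 2.59) and the Nutlin-3a peak from 69202068 to 69202905 (fold 3.29). With Nutlin-3a the peak was 838 bp wide against 565 bp, and its summit lay 222 bp further along the gene. Among pairs whose 2 folds average under 3, as here, the upper quartile of the summit distance was 267 bp. The −log10 q was 3.44 with DMSO and 8.15 with Nutlin-3a, both under the 10 asked of the ranked ratios below. MED14-AID cells with water had a peak here with Nutlin-3a (fold 3.64) and none without. The log2 ratio of the MDM2 pair in WT cells, 0.34, lay just below the upper quartile of all pairs, 0.38. Whether these hg19 peaks cover the internal window was not measured.

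MED1 height at the pairs was slightly greater with Nutlin-3a. The median fold was 3.48 with DMSO and 3.86 with Nutlin-3a, and the median log2 ratio of Nutlin-3a over DMSO was 0.14 (a ratio of 1.10, quartiles −0.09 and 0.38, range −0.75 to 1.35). Of the 726 pairs, 483 were higher with Nutlin-3a (66.5%, 63.0 to 69.9%) and 243 were lower. A ratio of at least 1.5 upward was reached by 75 pairs (10.3%, 8.32 to 12.8%), and 2 pairs reached it downward (0.275%, 0.0756 to 0.999%). A doubling was reached by 5 pairs, and no pair was lower by that much. When every ratio was divided by the median ratio, the same thresholds gave 33 higher and 27 lower pairs, a setting that balances the directions by its construction. The 2 lists were scaled separately, and a shift from scaling cannot be told apart from one in the cells.

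**Figure D1:**
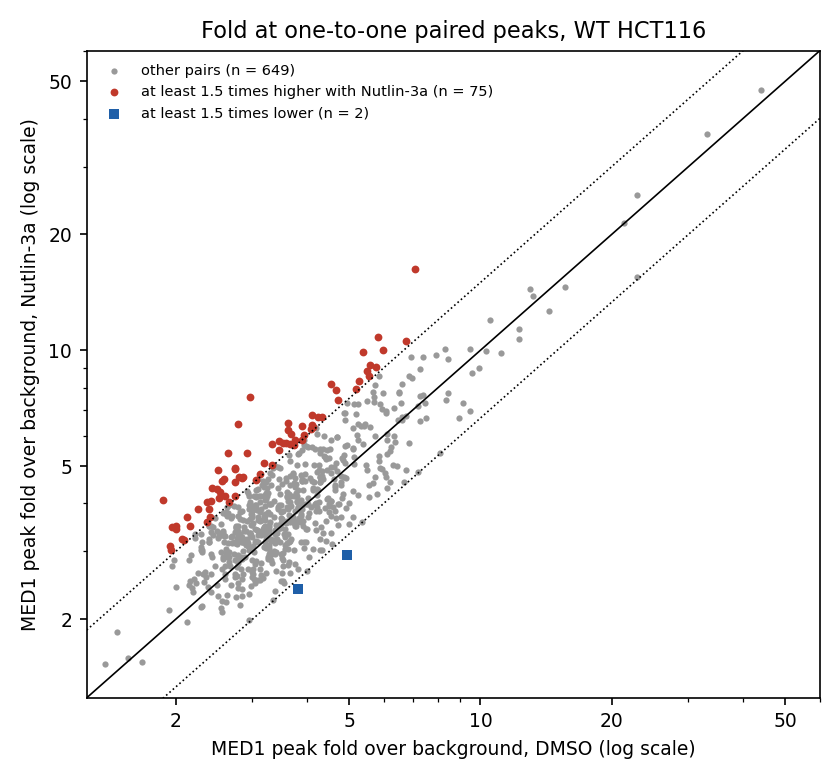
Fold of the 726 pairs with DMSO (x axis) and Nutlin-3a (y axis), both on log scales. The solid line marks equality and the dotted lines a ratio of 1.5, and 75 points lie above the upper and 2 below the lower dotted line.

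The same positions stood high in both lists. Across the pairs, log2 fold with DMSO and with Nutlin-3a had a Pearson r of 0.82 and a Spearman rho of 0.71 over 726 pairs, which share their caller and genome. The median log2 ratio differed with height. It was 0.13 in the 146 pairs with a mean fold under 3, 0.12 in the 303 between 3 and 4, 0.17 in the 197 between 4 and 6, and 0.28 in the 65 between 6 and 10. In the 15 pairs with a mean fold of at least 10 it was 0.00, and 11 of these had a lower −log10 q with Nutlin-3a against 227 of all 726. The weakest peaks can only be paired where both lists passed the caller's threshold, which limits how low a partner can be.

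The median log2 ratio of 0.00 in the 15 tallest pairs came with differences in both directions, 7 lower and 8 higher with Nutlin-3a. The highest lay on chromosome 2 from 3522288, at the start of ADI1, an enzyme of methionine salvage, with a fold of 44.0 with DMSO and 47.5 with Nutlin-3a. The next, on chromosome 19 from 6199169, had folds of 33.0 and 36.4. On chromosome 12 from 13080119 the folds were 22.8 and 25.4, and on chromosome 4 from 3748034 they were 21.3 and 21.4. The pair in SYTL3, a vesicle-trafficking gene on chromosome 6, had folds of 15.6 and 14.6. The widest differences among the 15 were at the start of PHF12, which encodes a PHD-finger protein, on chromosome 17 from 27278211, with 22.8 against 15.5 (ratio 0.68), and at NEAT1, with 7.07 against 16.3, the only one of the 15 past 1.5. Summits of the 15 tallest pairs were 14 bp apart in the median, and 13 of 15 lay within 100 bp.

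The 8 pairs with the largest upward ratio, among the 586 with −log10 q of at least 10 in either list, lay on 6 chromosomes. Between KRT6A and KRT5, 2 keratins of stratified epithelia, on chromosome 12 from 52889899, the fold was 2.96 with DMSO and 7.55 with Nutlin-3a (ratio 2.55) at nearly the same width and summit. In MED14-AID cells with water the same position had 4.10 without and 3.05 with Nutlin-3a, the opposite order. At IGF2, an imprinted growth factor gene on chromosome 11 from 2150903, the fold was 2.78 with DMSO and 6.41 with Nutlin-3a. There a DMSO peak of 612 bp overlapped a Nutlin-3a peak of 4011 bp whose summit lay 2116 bp away, so the 2 values belong to different points. MED14-AID cells with water had a peak at IGF2 with Nutlin-3a (6.03) and none without.

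NEAT1, the long noncoding RNA that scaffolds nuclear paraspeckles, had the tallest of the pairs past 1.5. Its fold on chromosome 11 from 65188359 was 7.07 with DMSO and 16.3 with Nutlin-3a (ratio 2.31), and the summits were 40 bp apart. The order was the same in MED14-AID cells with water, 8.88 without and 12.6 with Nutlin-3a, and with auxin the position was listed with Nutlin-3a (6.29) and not without. In ZBTB20, a zinc-finger repressor gene, the folds were 1.87 and 4.09, and at the start of ANXA2, a calcium-dependent membrane-binding protein, they were 2.51 and 4.89. Between TPCN2 and MYEOV on chromosome 11 from 68889828, they were 2.64 and 5.41 in WT cells and 4.04 and 4.03 in MED14-AID cells with water. On chromosome 9 from 132250439 they were 2.91 and 5.42, and in MED14-AID cells 5.71 and 3.95.

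The widest of these 8, at CCAT1, a noncoding RNA upstream of MYC that is abundant in colorectal carcinoma, ran over 9140 bp with DMSO and 8720 bp with Nutlin-3a. Its folds were 5.81 and 10.8 in WT cells and 6.07 and 9.39 in MED14-AID cells with water. Of the 75 WT pairs past 1.5 upward, 36 were listed in both water lists. Of the 222 other pairs in both water lists, 10 passed 1.5 upward there (4.50%, 2.46 to 8.09%). Of the 36, 4 passed it there too (11.1%, 4.41 to 25.3%), and the 2 intervals overlap. Besides CCAT1 these were a second position of the same region on chromosome 8 from 128276270 (5.27 to 8.30 in WT, 5.63 to 8.69 in MED14-AID cells), chromosome 2 from 182813659 (2.00 to 3.49 and 2.92 to 4.96) and chromosome 6 from 159273501, upstream of EZR, which links the membrane to actin (5.59 to 9.13 and 4.14 to 8.89).

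Downward differences were smaller, and no pair was below 0.595 of its DMSO value. On chromosome 1 from 145382454 the fold was 4.95 with DMSO and 2.95 with Nutlin-3a. In PDE9A, a cGMP phosphodiesterase gene on chromosome 21, it was 3.82 and 2.39, and these 2 are the pairs past 1.5 downward. At the histone gene H2AC11 it was 3.99 and 2.67, at widths of 1894 and 662 bp. In MTHFD1L, a mitochondrial folate enzyme gene, it was 5.36 and 3.59, and in MED14-AID cells the order was opposite, 4.04 and 6.17. A pair on chromosome 10 from 134145055 had 8.10 and 5.41, and another from 124713483 had 7.21 and 4.83. In ACSL5, a long-chain acyl-CoA synthetase gene, 2 pairs had 3.34 and 2.24 and 2.95 and 1.99. Of the 8, the MTHFD1L pair and the pair from 124713483 (4.86 and 3.75) were in both water lists.

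**Figure D2:**
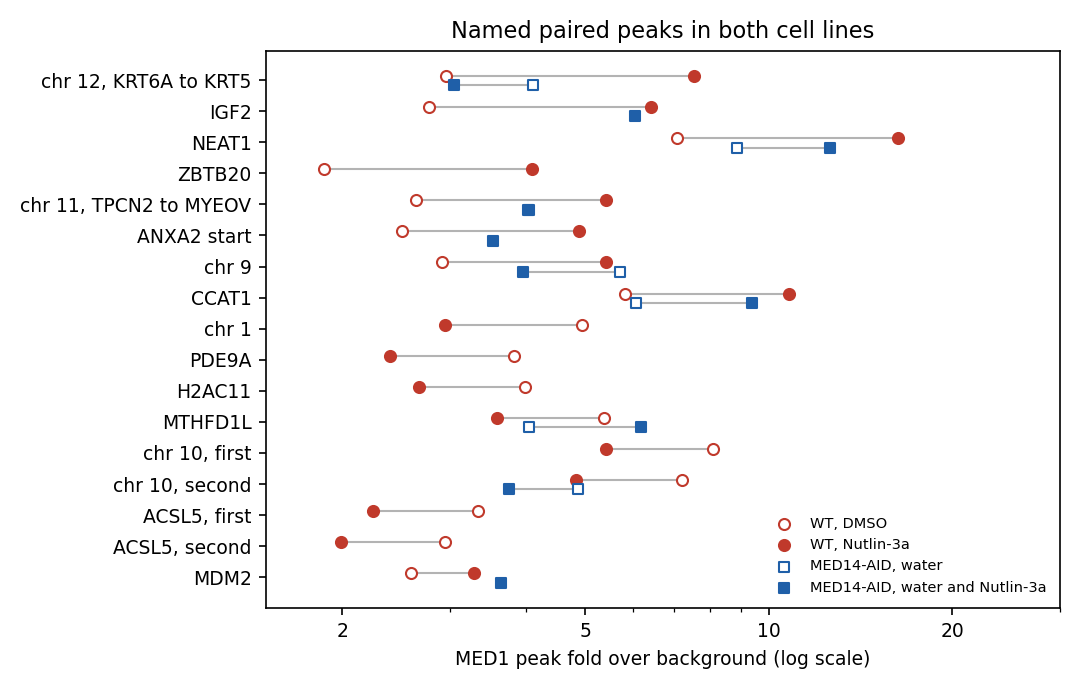
Fold (x axis, log scale) of the 8 pairs with the largest upward and the 8 with the largest downward ratio, and of MDM2, in WT cells (circles) and MED14-AID cells with water (squares), without (open) and with Nutlin-3a (filled). A square is missing where that list has no peak, and at the KRT6A to KRT5, chromosome 9 and MTHFD1L positions the squares run opposite to the circles. Between TPCN2 and MYEOV the 2 squares lie on each other.

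Peaks were slightly wider with Nutlin-3a. The median width of the pairs was 873 bp with DMSO and 965.5 bp with Nutlin-3a, with a median difference of 52.5 bp and a median ratio of 1.05 (0.07 on the log2 scale). Of 726 pairs, 437 were wider (60.2%, 56.6 to 63.7%), 97 by at least 1.5 times, and 26 were narrower by that much. Width and height went together only loosely, with a Pearson r of 0.30 and a Spearman rho of 0.32 between the 2 log2 ratios over 726 pairs, both measured on the same peaks. Of the 75 pairs past 1.5 in fold, 63 were also wider. After IGF2, the largest widening was in RAD51B, a recombination gene on chromosome 14 (575 to 1885 bp), and in MIR100HG, the host gene of a microRNA cluster on chromosome 11 (653 to 2034 bp). The largest narrowing was in SYTL3 (1490 to 500 bp, the shortest width in either list).

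Summits of the pairs were 73.5 bp apart in the median, with 61.2% of pairs (57.6 to 64.6%) within 100 bp and 96.6% within 500 bp. The median signed shift was 0. Paired peaks must overlap, and their median widths were 873 and 965.5 bp, so the pairing itself limits this distance. Peaks whose summits lay farther apart could fail to overlap and be counted as gained and lost. The distance was 99 bp in the weakest pairs, with a mean fold under 3, and 64 bp in those between 6 and 10. Summits of 25 pairs lay more than 500 bp apart. After IGF2, the farthest were on chromosome 8 from 6451284 (1301 bp back), on chromosome 12 from 76109257 (1182 bp back, with a fold of 3.59 in both lists) and in RAD51B (1108 bp forward).

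**Figure D3:**
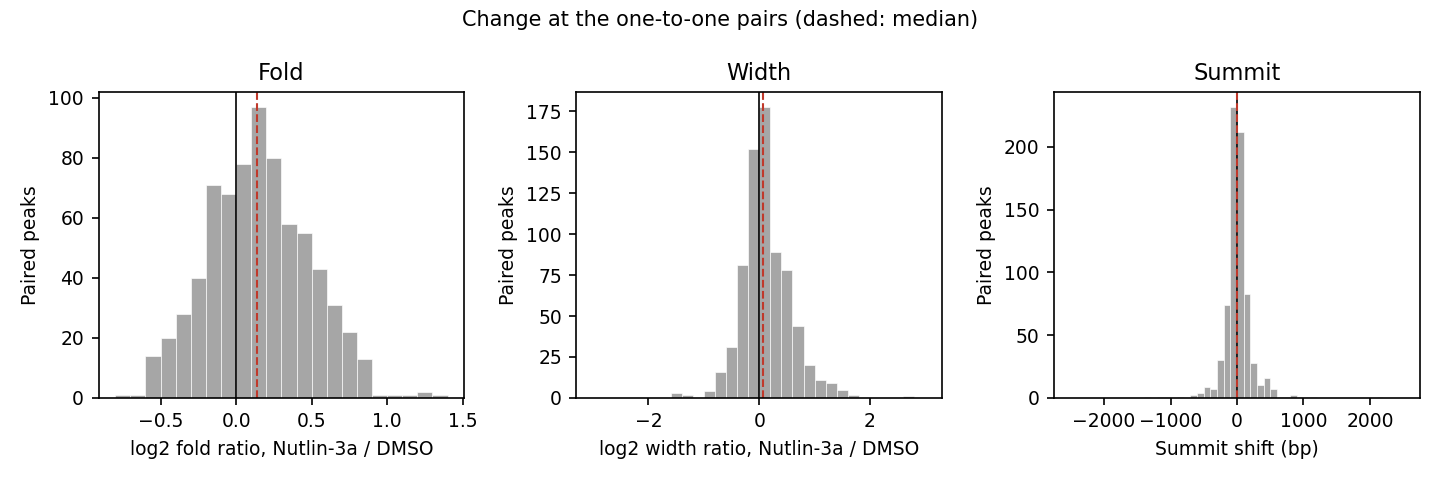
Distribution over the 726 pairs of the log2 fold ratio, the log2 width ratio and the signed summit shift in bp (x axes), as numbers of pairs (y axes). The solid line is at 0 and the dashed line at the median, 0.14, 0.07 and 0 bp.

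The remaining overlaps were not simple. A DMSO peak met 2 or more Nutlin-3a peaks in 24 groups (3.07% of 781), several DMSO peaks met 1 Nutlin-3a peak in 22 (2.82%), and 9 groups held several of both, so splitting and merging were about equally frequent. The largest, on chromosome 8 from 94887528, held 3 DMSO and 2 Nutlin-3a peaks with highest folds of 5.97 and 6.57. At MYEOV, 2 peaks of each list met, with highest folds of 5.40 and 6.55. Just upstream of CCND1, the cyclin D1 gene, 2 DMSO peaks (highest fold 4.48) met 1 Nutlin-3a peak (2.90). The smallest overlap that still paired peaks was 10 bp, on chromosome 4 from 30952125, and the smallest gap that left them apart was 20 bp, on chromosome 11 from 121559404.

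Neighbouring pairs formed 18 clusters of at least 6, with gaps of at most 50 kb, and these held 156 pairs. In 15 of the 18 the median log2 ratio was above 0, as it was on 19 of the 20 chromosomes with at least 10 pairs (chromosome 18 had −0.13). Set against the median of all pairs, 0.14, the counts were 12 of 18 clusters and 12 of 20 chromosomes. The CCAT1 region on chromosome 8, from 128218068 to 128344948, had the highest median, 0.40, and all of its 13 pairs were higher with Nutlin-3a, 10 of them by more than the median of all pairs. MIR31HG, the host gene of miR-31, also had 0.40, with 5 of 6 pairs higher. Between AREG and BTC, which encode EGF receptor ligands, the median was 0.35, around the keratin gene KRT80 it was 0.28 and at the protocadherin gene PCDH7 it was 0.25, with 10 of 14 higher. The lowest medians were −0.02, at SYTL3 and on chromosome 18 from 3594144. In MED14-AID cells with water, 7 pairs of the CCAT1 region were in both lists and had a median of 0.03, with 5 of 7 higher.

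**Figure D4:**
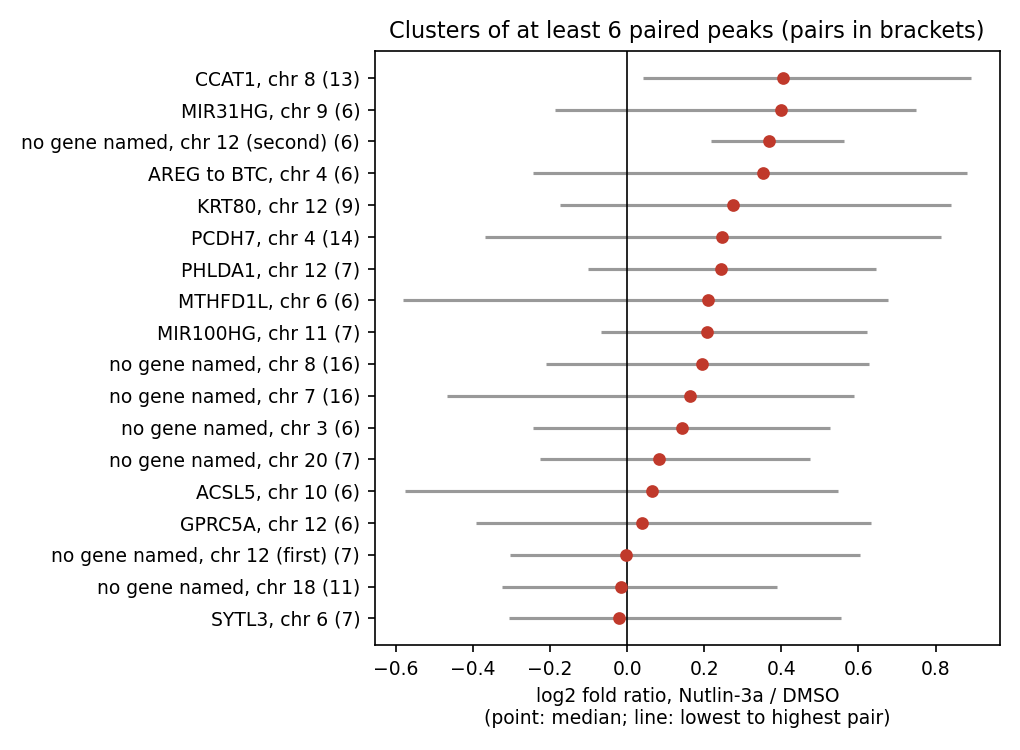
Log2 fold ratio of WT pairs (x axis) in the 18 clusters of at least 6 pairs, with the median as a point and the lowest and highest pair as the ends of the line. In the CCAT1 cluster and in the unnamed chromosome 12 cluster at 116930347, marked (second) among the 2 unnamed clusters of that chromosome, every pair lies above 0, and 3 clusters have medians just below 0.

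Named gene lists were read within 50 kb of each gene's start, and a pair counts as changed there at a ratio of 1.5, which 10.3% of all pairs passed upward and 0.275% downward. Of 40 p53 target genes, 33 had no peak in either list, CDKN1A, the cell-cycle inhibitor p21, among them. The 6 with a Nutlin-3a peak were MDM2, BAX, GDF15, PLK3, LIF and NOTCH1, and POLH had a DMSO peak only (3.05). BAX, an activator of apoptosis, had 2 gained peaks (up to 4.18), and GDF15, a stress-induced cytokine, had 1 (4.07), where 35.0% of all Nutlin-3a peaks were gained. PLK3, a stress-response kinase gene, had 1 gained (3.11) and 1 lost peak (2.38). Near LIF, a cytokine gene, 6 Nutlin-3a and 3 DMSO peaks were listed, the highest at 4.69 and 4.55, and 4 of them were gained and 1 lost. Of the 5 pairs of the list none passed 1.5, 3 were higher, and their median log2 ratio was 0.13 against 0.14 over all pairs.

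The keratin and epithelial list had more peaks, at 8 of 14 genes with Nutlin-3a and 7 with DMSO. Of its 16 pairs 11 were higher, 9 by more than the median of all pairs, 2 passed 1.5 upward and none downward, and the median log2 ratio was 0.25. Both of the 2 lay near KRT80, as did 7 of the 16 pairs in all, and KRT8 and KRT18 share the same 2 pairs. The pair at the start of KRT80 went from 2.58 to 4.62, against 5.19 and 5.59 in MED14-AID cells with water. Among 18 genes of the AP-1 and ERK response, 12 had no peak, the 8 pairs had a median of 0.02, and none passed 1.5 in either direction. FOSL1, an AP-1 subunit, had 2 pairs with a median of −0.36, and IER3, an immediate early gene, had 3 with 0.30. The highest fold near IER3 nevertheless was 9.47 with DMSO and 6.96 with Nutlin-3a. Of 11 Wnt targets, CCND1 had the only pair (3.14 and 4.19, a log2 ratio of 0.42) and NOTUM a gained peak of 2.56. The merged group just upstream of CCND1, which is not a pair, went the other way (4.48 and 2.90).

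Gained and lost peaks were mostly low. The median fold was 3.02 in the 439 gained (35.0% of Nutlin-3a peaks, 32.4 to 37.7%) and 2.76 in the 293 lost (26.5% of DMSO peaks, 24.0 to 29.2%). Of peaks with a fold of at least 5, 98.6% with DMSO and 92.8% with Nutlin-3a had a partner, and of those under 3, 55.0% and 43.2%. Of the gained peaks, 109 (24.8%) lay within 5 kb of a DMSO peak and 251 (57.2%) had none within 50 kb. Of the lost peaks, 56 (19.1%) lay within 5 kb of a Nutlin-3a peak and 198 (67.6%) had none within 50 kb. For comparison, 41.3% of paired DMSO peaks had another DMSO peak within 5 kb, and 33.2% had none within 50 kb. Among paired Nutlin-3a peaks, the shares with another Nutlin-3a peak were 45.8% within 5 kb and 29.9% with none within 50 kb. In the MED14-AID lists with water and Nutlin-3a, 46 gained peaks were found again (10.5%), 9 lost ones (3.07%), and 370 of the 815 paired Nutlin-3a peaks (45.4%). Without Nutlin-3a the counts were 28, 8 and 359. These shares are not at equal height, since the median fold was 3.02 in gained and 3.83 in paired Nutlin-3a peaks. Of the 36 gained peaks with a fold of at least 4, 20 were found again with water and Nutlin-3a (55.6%). Leaving out the liver genes described below, APOA4 and H19, it was 8 of 23 (34.8%).

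The tallest gained peak lay at the end of YY1, which encodes a zinc-finger transcription factor, on chromosome 14 from 100743337 (13.8), and the next downstream of SKOR1, a corepressor gene, on chromosome 15 from 68131981 (12.6). Both were listed again with auxin and Nutlin-3a (14.6 and 8.91), and the YY1 peak also with water and Nutlin-3a (3.78). At H19, on chromosome 11 from 2016509, the gained peak had a fold of 9.03. It was also listed without Nutlin-3a, with water (5.68) and with auxin (3.72), and with water and Nutlin-3a (7.43). At PGC, the gene of the stomach protease precursor pepsinogen C, 2 gained peaks of 6.79 and 4.62 were in no other list. In RAD51B a gained peak of 5.27 was also in both water lists (3.46 and 3.47). The tallest lost peaks, on chromosome 1 from 32479012 (6.62) and from 167189504 (5.31), on chromosome X from 40506488 (4.80), on chromosome 5 from 98264515 (4.44) and on chromosome 19 from 11070992 (4.20), were in no other list.

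A set of gained peaks lay on genes that liver cells transcribe at very high levels. Of 14 such genes, 9 had 13 Nutlin-3a peaks (folds 3.70 to 9.03) and none had a DMSO peak. They were ALB (albumin), APOA1, APOA2, APOC3 and APOE (apolipoproteins), FGA and FGB (fibrinogen chains), HP (haptoglobin) and SERPINA1 (alpha-1 antitrypsin), and the other 5, APOA5, FGG, TF, TTR and AHSG, had none in any list. All 13 peaks were gained, and 9 of the 15 gained peaks with a fold of at least 5 were among them. In MED14-AID cells, presence at the 14 genes differed in opposite directions between the water and the auxin lists. After water, 6 genes had a peak without Nutlin-3a and 8 had one with it. After auxin, the counts were 8 without and 1 with Nutlin-3a. In the water lists the highest fold was greater with Nutlin-3a at APOA1 (4.33 to 7.01), APOE (5.01 to 6.51) and SERPINA1 (6.63 to 8.83). FGA and FGB had the same order, and HP had the opposite one (8.02 to 6.57). SERPINA1 had 3 peaks in the WT Nutlin-3a list, 3 in each water list and 3 in the auxin list without Nutlin-3a. Its highest fold was 9.03 in the WT Nutlin-3a list and 7.96 in that auxin list. What gave these peaks was not tested, and no pair lies at these genes. The gained peaks at APOA4 (6.64) and H19 (9.03) are outside the 14 genes and were likewise listed with water and with auxin. Without these and the peaks at the liver genes, 424 gained peaks remain (34.2%).

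At the 258 pairs listed in both water lists, the size of the change in one line said little about the other. The median log2 ratio was 0.17 in WT and 0.02 in MED14-AID cells, the direction was the same at 136 (52.7%, 46.6 to 58.7%), and the ratios had a Pearson r of 0.07 and a Spearman rho of 0.06. In MED14-AID cells 14 passed 1.5 upward (5.43%) and 18 downward (6.98%). Of the 36 that passed 1.5 upward in WT cells, 19 were higher in MED14-AID cells (52.8%), 4 passed 1.5 upward and 1 downward. Of the other 222, 115 were higher there (51.8%) and 10 passed 1.5 upward. Heights themselves went together more closely between the lines than the ratios. On the log2 scale, the lists without Nutlin-3a had a Pearson r of 0.74 and a Spearman rho of 0.57. Those with Nutlin-3a had 0.77 and 0.63. The WT cells without Nutlin-3a had DMSO, while the labels name no vehicle for Nutlin-3a in MED14-AID cells, which had water in both lists, and the difference in ratios was not tested.

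**Figure D5:**
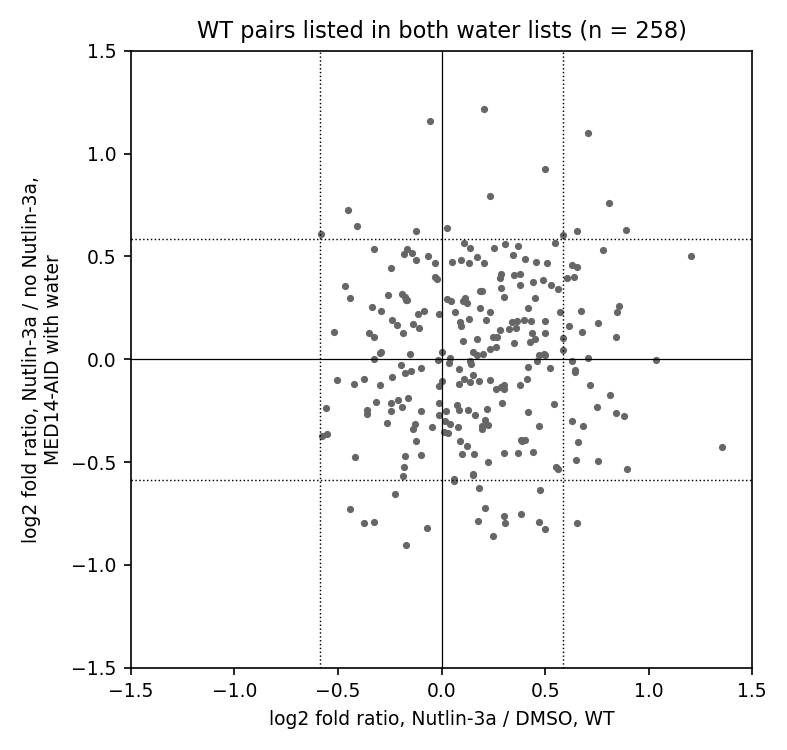
Log2 fold ratio with over without Nutlin-3a in WT cells (x axis) and in MED14-AID cells with water (y axis) at the 258 WT pairs found in both water lists. Dotted lines mark a ratio of 1.5, and the points spread over all 4 quadrants, with 136 of 258 on the same side of 0 in both lines.

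Pairs that were also listed after auxin, which depletes MED14, lay about evenly to both sides of 0, with 31 of 59 higher with Nutlin-3a against 452 of 667 among the others. The 59 pairs that overlapped a peak of an auxin list had a median log2 ratio of 0.05, against 0.15 in the other 667. They spread as widely, with quartiles of −0.25 and 0.26 against −0.07 and 0.39. Among pairs with a mean fold of at least 5 the medians were 0.00 (49 pairs) and 0.21 (91), and the summits were 24 and 78 bp apart. The auxin-listed pairs were also the taller, with a median DMSO fold of 6.59 against 3.37, and even past a mean fold of 5 the medians were 7.07 and 5.55, so height and presence after auxin cannot be told apart here.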

How the data were processed

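Per the submitters' processing notes, the tools were Bowtie 0.12.9 (alignment) and MACS2 2.1.2 (peak calling), with hg19 as the build and with settings not given in the sources used here. Column 7 of each deposited list, the fold, is a ratio to background from the authors' peak caller, and column 9 is the deposited −log10 of the q-value. Each list was scaled by itself.

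Overlap of at least 1 bp paired the peaks, and a fold ratio of 1.5 was counted as changed. Wilson intervals are at 95%, and positions are 1-based. The scripts ran in Python 3.11.15 with pandas 2.3.3, numpy 2.4.6, matplotlib 3.10.9 and scipy 1.17.1. They were tested on simulated data: with the 1106 WT DMSO peaks as the template, all 906 copies were paired, and 100 of 100 raised copies were called. The copies kept their widths, were moved by less than a peak width and had no noise in fold. The raised ones were set well past 1.5. Such a run checks the code and gives no error rate for the real lists.

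Named positions are the 8 largest ratios in each direction (−log10 q of at least 10 in either list), the 8 tallest pairs, the 5 most widened, narrowed and shifted, the tallest gained and lost peaks and the gene lists, from which those that lead are given. MDM2, KRT80, PGC and the positions past 1.5 in both lines were named after their values were seen. The comparison, members and gene lists were chosen with earlier results of these data known. No hg19 annotation was at hand. Gene positions were recalled to the kb, and of 149 such genes 149 lay on the same chromosome and 126 of 126 neighbours in the same order in RefSeq GRCh38. Of 33 close neighbours, 31 had the same spacing within 3 kb. The gene lists were read within 50 kb of a start, and the liver genes within 1 kb of the gene. A further gene list is not reported here. Sequences are from RefSeq (GRCh38.p14), where 3 of 6 genes looked for were matched, and those of MDM2 are shown.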

Additional observations from a re-analysis of the deposited data

Results flagged for a closer look

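At the WT pair on chromosome 13 from 113526979, the lines moved past 1.5 in opposite directions. The fold was 4.72 with DMSO and 7.44 with Nutlin-3a in WT cells (0.66 on the log2 scale), and 12.3 without and 7.07 with Nutlin-3a in MED14-AID cells with water (−0.80). Each value rests on 1 list, and the difference was not tested.

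Peaks at the liver genes appeared in data outside the comparison. The MED14-AID list with auxin and no Nutlin-3a held 10 peaks at 8 of these genes, among 53 peaks in all, while the WT DMSO list held 0 at any of the 14.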

How the results depend on the processing

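No paired analysis was possible because each WT condition is 1 joint list, and for the same reason no library could be left out. Depth limits every count, since the lists give no reads. Against 35.0% gained and 26.5% lost, the shares were 43.1% and 35.4% with a reciprocal overlap of 50%, 31.2% and 24.0% with a gap of up to 1 kb, 30.7% and 30.0% with lists of equal length, and 37.7% and 14.3% where both lists were cut at a −log10 q of 10. Where both were cut at 5, 20.9% were lost. With only the first list cut at 10, a setting chosen after seeing the data, they were 15.8% and 5.98%. Against 75 higher and 2 lower pairs past 1.5, the counts were 33 and 27 relative to the median ratio, 42 and 0 with −log10 q of at least 10, 5 and 0 at a ratio of 2, and 280 and 62 with −log10 q in place of fold, whose median log2 ratio was 0.36. A reciprocal overlap of 50% gave 4 lower pairs. With −log10 q of at least 10 the median log2 fold ratio was 0.12 and the median summit distance 60 bp. The other 41 of 62 planned values stayed within the main interval or within 1.5 times the main count. So did 8 of 10 from the settings added later (without the liver genes, without auxin-listed pairs, and the one above). Some of these values could not move. The median ratio does not depend on the threshold, and no pair or lost peak lies at the liver genes. Leaving out chromosome Y changed only the lost share (26.3%). The counts are therefore no measure of stability.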
